A study of Caenorhabditis elegans with 4 samples.

Results

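Cyclins are the regulatory subunits of the cyclin-dependent kinases (CDKs) and rise and fall as cells pass through the division cycle. In Caenorhabditis elegans, CYD-1 (cyclin D) and CYE-1 (cyclin E) act at the entry into S phase, CYA-1 (cyclin A) is an A-type cyclin of S phase and mitosis, and the B-type cyclins CYB-1, CYB-2.1, CYB-2.2 and CYB-3 drive mitosis. E2F transcription factors are known from animals in general as regulators of cell cycle genes, and cyclin E is a classical E2F target in flies and mammals. EFL-1 is a worm E2F factor that works with the partner DPL-1 and with LIN-35, the worm homologue of the retinoblastoma protein.

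The 7 genes described here are cyd-1 and cye-1 (G1/S), cya-1, and cyb-1, cyb-2.1, cyb-2.2 and cyb-3 (mitotic). They were taken by name from 46890 annotated genes on the nuclear chromosomes, of which 19971 are protein-coding, and all 7 were found. Binding was mapped by chromatin immunoprecipitation and sequencing (ChIP-seq) in hermaphrodite L1 larvae of strain MT10430, which carries the loss-of-function allele lin-35(n745). The 4 samples were 2 EFL-1 ChIP samples, made with a rabbit polyclonal antibody against EFL-1, and 2 input samples of total chromatin DNA. The larvae grew on plates of E. coli HB101, at 20 °C per the protocol, although the stage label also carries the tag 26dC. All samples had the same genotype, stage and sex, so nothing here compares lin-35 mutants with animals that have LIN-35. Whole larvae were used, so the cells in which EFL-1 sat at a site are not known.

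The authors deposited 3 peak lists, in WormBase WS220 coordinates: replicate 1 with 22275 peaks, replicate 2 with 22464 peaks, and a combined list with 4966 peaks. Peaks are given here by their number within a list, where 1 is taken as the strongest. The deposited score cannot check the order among the 5002 replicate 1 peaks and the 3810 replicate 2 peaks that share the top score, nor in the combined list, where all scores are equal. The replicate peaks at the near sites of cye-1, cyb-1 and cyb-3 are among these ties. Read depth is unknown, since the lists hold no read counts. A single width was shared by 91.4% of replicate 1 peaks (324 bp) and by 93.7% of replicate 2 peaks (330 bp), so a width is a measurement only where it departs from these. In the combined list the commonest width (330 bp) was shared by 52.8% of peaks, so another width is common there. A gene was called bound if the centre of a combined peak lay within 500 bp of its annotated start. The annotation used, RefSeq genes of WBcel235, gave no strand. For that reason both ends of every gene were examined, called the low and the high end after their coordinates. A gene with no peak at either end has none at its annotated gene start. Starts of shorter transcripts inside a gene were not examined. For other genes and for the background, bound means a combined peak at either end, which can be the end where transcription stops. Distances therefore set WS220 peaks against WBcel235 gene ends. The shift between the builds, estimated from the peaks themselves, was between -6.5 and -53 bp for the 6 chromosomes, and between 4.75 and -69.6 bp in the region within 2 Mb of each cyclin gene.

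None of the 7 cyclin genes was bound. A combined peak centre within 500 bp of either end was found for 0 of 2 G1/S cyclins, 0 of 4 mitotic cyclins and not for cya-1. Over all genes, 12.1% had one. Over protein-coding genes the share was 19.7% (3925 of 19971, exact 95% interval 19.1 to 20.2%), a share that amounts to between 1 and 2 genes in 7, so the count of 0 is near the background and does not set the cyclin genes apart. Combined peaks lay a little further out from 3 of the 7. The nearest combined peak centre was 542 bp from cye-1, 632.5 bp from cyb-3 and 738 bp from cyb-1, in each case outside the gene on its low side. The other four had their nearest combined peak 2544 bp (cya-1), 3260 bp (cyd-1), 6088 bp (cyb-2.1) and 15950 bp (cyb-2.2) away. The nearest, at cye-1, was 42 bp outside the limit, more than the shift of 4.75 bp estimated around that gene, and no member lay inside.

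**Figure D1:**
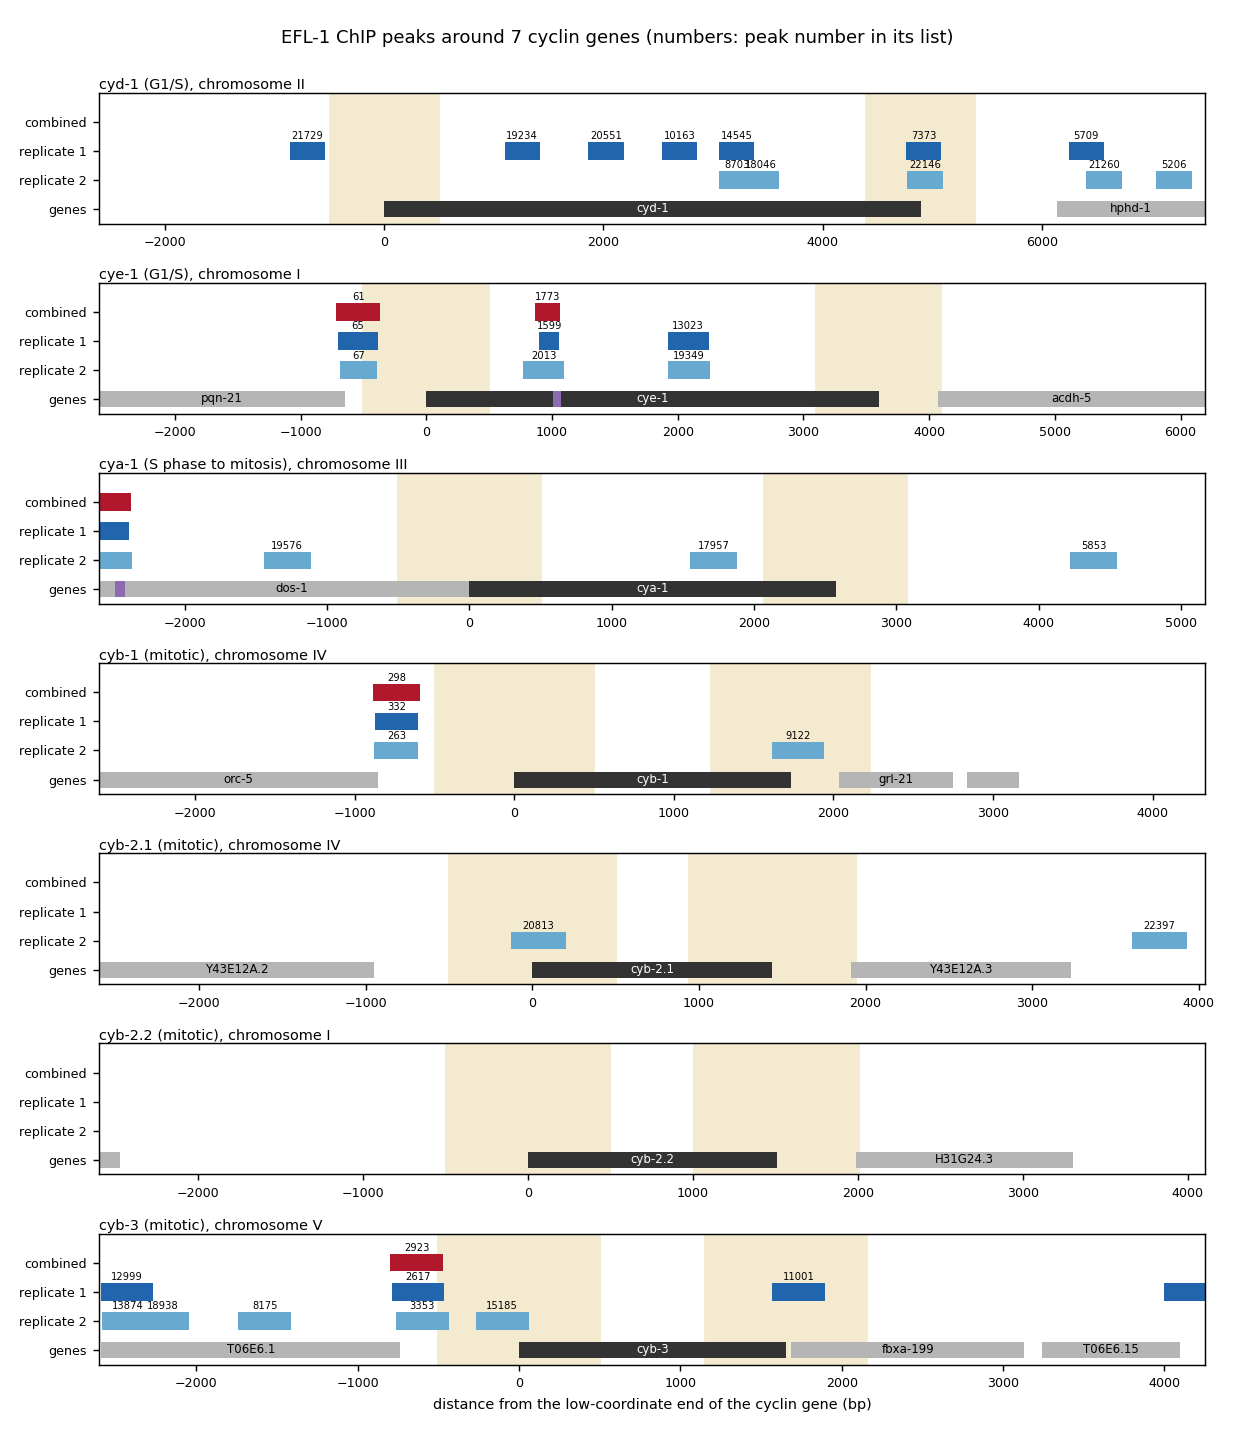
Peaks of the combined list (red), replicate 1 (dark blue) and replicate 2 (light blue) around each cyclin gene (black bar), with neighbouring protein-coding genes (grey) and tRNA genes (purple). The x axis is the distance from the low end of the cyclin gene in bp, shaded bands mark 500 bp around both ends, and no red bar is centred in a band.

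Of the G1/S pair, cye-1 had the strongest peak nearby of any cyclin gene. On chromosome I, from 6780084 to 6780430, the combined list held peak 61, which puts it in the strongest 1.23% of that list. Replicate 1 placed the same site at peak 65 and replicate 2 at peak 67, with centres 3 bp apart. Widths were 319 bp in replicate 1 and 297 bp in replicate 2, both off the fixed widths, and 347 bp in the combined list. The site was thus in the same place and at almost the same rank in both replicate lists. The combined list was made from these replicates, by processing named as keeping peaks that rank alike, so its rank is not independent of theirs. How many other combined peaks were as close in place and rank was not counted. Its near edge was 369 bp from the low end of cye-1, which is inside the 500 bp window, while its centre was not.

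A second combined peak lay inside cye-1, from 6781667 to 6781862 on chromosome I, with its centre 965.5 bp from the low end. It was peak 1773 in the combined list, peak 1599 in replicate 1 and peak 2013 in replicate 2. Its centre was 38.5 bp from the tRNA gene C37A2.t1, which lies within cye-1. Over all 612 nuclear tRNA genes, 32.7% had a combined peak centre within 500 bp, against 19.7% of protein-coding genes; whether the peak inside cye-1 belongs to the cyclin gene or to the tRNA gene cannot be told apart. One more site inside the gene was weak and found in the replicate lists alone, as peak 13023 in replicate 1 and peak 19349 in replicate 2, with centres 6 bp apart.

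The other G1/S gene, cyd-1, had no combined peak within the gene or 2 kb of it. Replicate peaks were many there, 7 in replicate 1 and 4 in replicate 2, all numbered 5709 or higher. Peak 5709 of replicate 1, outside the high end, had 25.6% of its list at or above it. A pair inside the gene, peak 14545 in replicate 1 and peak 8703 in replicate 2, had centres 4 bp apart. Another pair sat at the high end. It held peak 7373 in replicate 1, centred 26.5 bp outside that end, and peak 22146 in replicate 2, centred 44.5 bp outside it. These overlapped by 309 bp, yet the replicate 2 peak was among the last of its list, with 98.6% of its peaks at or above that number. The nearest combined peak (number 3215, chromosome II from 12996212 to 12996541) was centred 32.5 bp from an end of the neighbouring gene hphd-1. Neither G1/S cyclin gene was bound, but they differed in what lay nearby. A site near the top of every list was centred 542 bp from cye-1, though 106 bp from its neighbour pqn-21. At cyd-1 there were replicate peaks alone, numbered 5709 or higher.

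For cya-1, neither list of a replicate nor the combined list had a peak centre within 500 bp of an end. Replicate 1 had no peak in the gene or within 2 kb of it, and replicate 2 had 3, the strongest being peak 5853. The nearest combined peak, number 3192, lay on chromosome III from 9103990 to 9104319, and its centre was 52.5 bp from another tRNA gene, ZK507.t1. Both the peak and that tRNA gene lie inside the protein-coding gene dos-1, which overlaps the low end of cya-1. The peak centre was 211.5 bp from the other end of dos-1.

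Among the mitotic cyclins, cyb-1 had the strongest peak nearby. It was peak 298 in the combined list (chromosome IV from 10734555 to 10734853), peak 332 in replicate 1 and peak 263 in replicate 2, with identical centres in both replicates. The replicate widths of 271 bp and 277 bp were below the fixed widths, and the combined width was 299 bp. At 738 bp, this centre was the farthest from its cyclin gene of the 3 near sites, and its near edge, at 589 bp, was also beyond the window. At the other end of cyb-1, replicate 2 alone had a weak peak (9122), centred 45.5 bp outside the gene.

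The site near cyb-3 was of middling rank. It was peak 2923 in the combined list (chromosome V from 15394899 to 15395228), which puts 58.9% of the list at or above it, peak 2617 in replicate 1 and peak 3353 in replicate 2. All widths were the commonest of their list, and the replicate centres were 25 bp apart. Closer to the gene there were only weak peaks of single replicates. Replicate 1 had peak 11001 at 77.5 bp outside the high end, and replicate 2 had peak 15185 at 104.5 bp outside the low end. These 2 did not coincide, so no site within 500 bp of cyb-3 was found in both replicates.

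The closely related pair cyb-2.1 and cyb-2.2 had the fewest peaks. At cyb-2.1, replicate 1 had no peak in the gene or within 2 kb, and replicate 2 had 1, peak 20813, centred 34.5 bp inside the low end, with 92.7% of the list at or above it. At cyb-2.2 no list had a peak in the gene or within 2 kb, and the nearest of any list was 12350 bp away, in replicate 1. Values at such similar gene copies are uncertain, because the placement of reads that match both is not stated for these lists, and its part in the low counts was not tested.

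**Figure D2:**
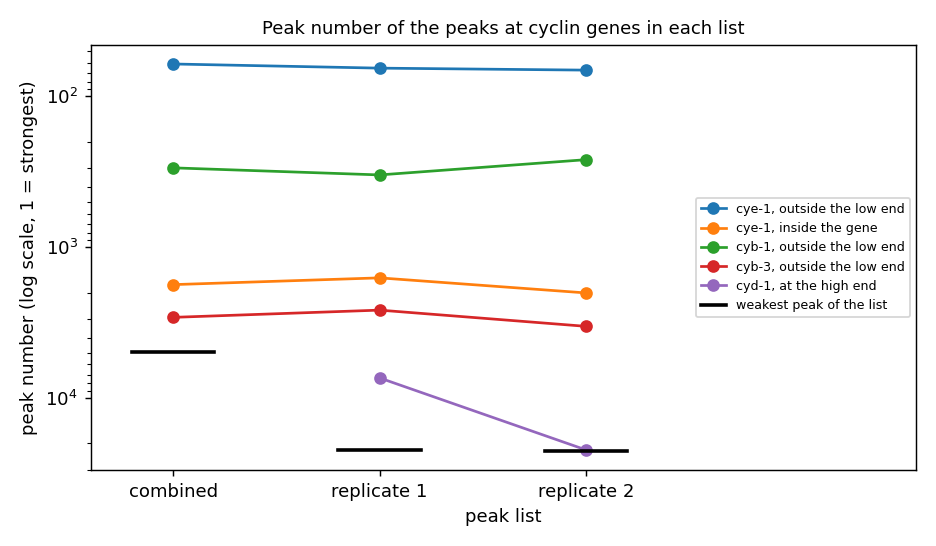
Peak number (log scale, 1 at the top is the strongest) of 5 sites at cyclin genes in the combined list and both replicate lists; black bars mark the weakest peak of each list. The sites near cye-1 and cyb-1 stay at the top of every list (61 to 67 and 263 to 332), while the site at the high end of cyd-1 is absent from the combined list.

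Each of the 3 near sites lay in the stretch between the cyclin gene and the next gene, and much closer to that neighbour. The cye-1 site was centred 106 bp from the high end of pqn-21, in a gap of 647 bp between the genes. The cyb-1 site was centred 116 bp from the high end of orc-5, which encodes a subunit of the origin recognition complex that marks sites of DNA replication, in a gap of 853 bp. The cyb-3 site was centred 102.5 bp from the high end of T06E6.1, in a gap of 734 bp. Measured from the neighbour, the centres lay 16.4%, 13.6% and 13.9% of the way across. Over the 644 combined peaks in gaps of 500 to 1000 bp between protein-coding genes, the median distance to the nearer gene was 196 bp, and 23.1% lay within 120 bp of it. That comparison was chosen after the 3 positions had been seen and has no test. Whether pqn-21, orc-5 and T06E6.1 start or stop at those ends is not given by the gene table, so the peaks cannot be assigned to the neighbour or to the cyclin gene. In C. elegans the annotated start of a trans-spliced gene can lie downstream of where transcription begins, so a distance to it is not a distance to the promoter.

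With the window widened to 1000 bp, cye-1, cyb-1 and cyb-3 counted as having a combined peak, that is 3 of the 7 cyclin genes (42.9%), against 24.9% of protein-coding genes. By class these were 1 of 2 G1/S cyclins and 2 of 4 mitotic cyclins. Over all genes, 15.9% had a combined peak within 1000 bp. The step between both windows held these 3 genes and 5.2% of protein-coding genes. That step was not a planned comparison and has no test, so it does not set the 3 genes apart. With 2 and 4 genes in the classes, which are named genes and not replicates, the contrast of G1/S with mitotic cyclins is a description: both classes held genes with a combined peak within 1000 bp and genes without one, and neither class had one within 500 bp.

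**Figure D3:**
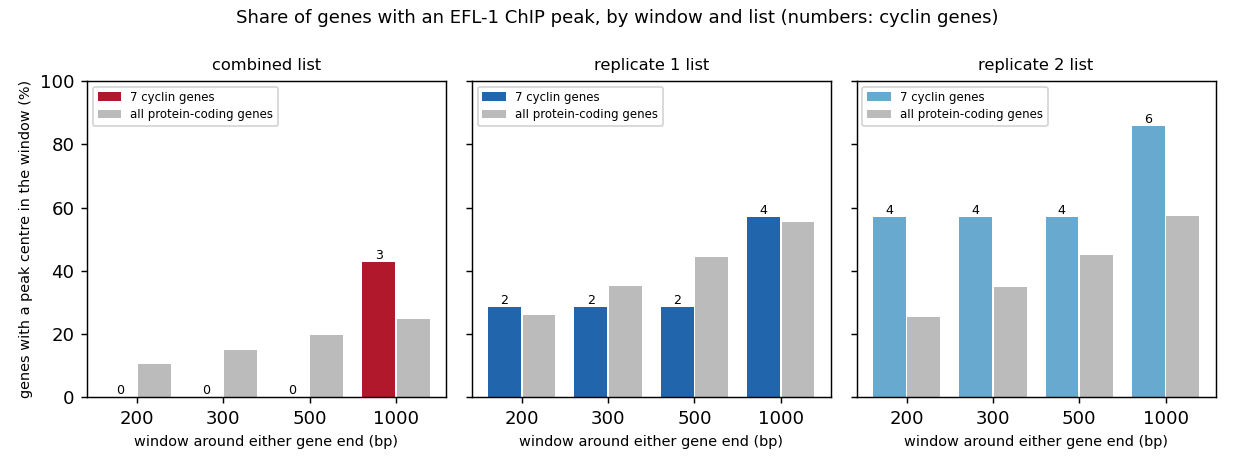
Share of the 7 cyclin genes (coloured bars, with their number) and of all protein-coding genes (grey bars) that had a peak centre within 200, 300, 500 or 1000 bp of either gene end, for each list. In the combined list the cyclin count is 0 at 200 bp (10.7% of protein-coding genes), 300 bp (15.1%) and 500 bp (19.7%), and 3 at 1000 bp.

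The whole replicate lists, which hold many more and weaker peaks, gave other counts. In replicate 1, cyd-1 and cyb-3 had a peak centre within 500 bp of an end, 2 of 7 against 44.3% of protein-coding genes (31.7% of all genes). In replicate 2 these were cyd-1, cyb-1, cyb-2.1 and cyb-3, 4 of 7 against 44.9% (32.3% of all genes). All of these peaks were numbered 7373 or higher, beyond the 4966 that the combined list holds. Of them, only the cyd-1 peaks overlapped between the replicates. How often such weak peaks overlap over all genes was not counted, so this says nothing particular about the cyclin genes. When each replicate list was instead limited to its 4966 strongest peaks, 0 of 7 cyclin genes had a peak within 500 bp in either, against 19.4% of protein-coding genes in replicate 1 and 19.2% in replicate 2. The count of 0 was thus the same in the strong part of both replicates, which is not independent of the combined list.

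**Figure D4:**
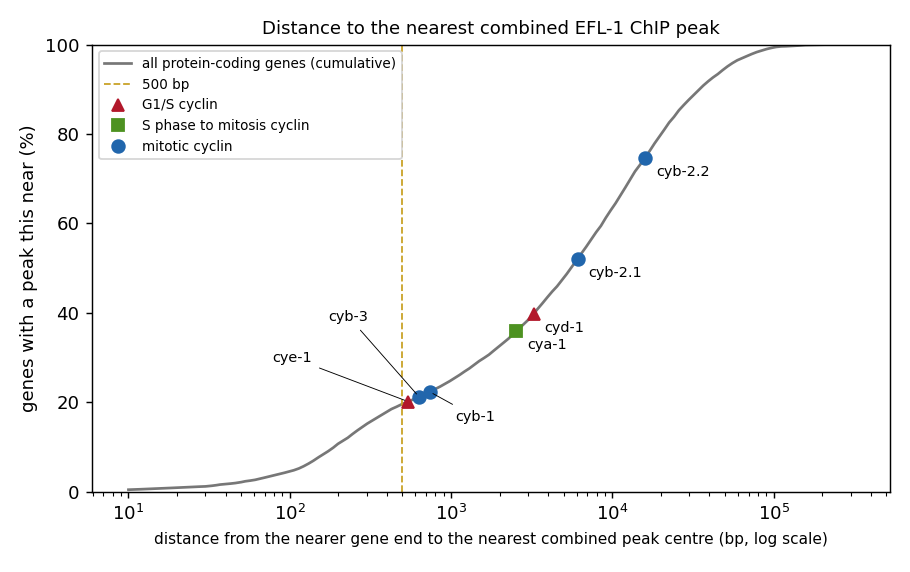
Distance from the nearer gene end to the nearest combined peak centre (bp, log scale) against the share of all protein-coding genes with a peak at least that near (grey line), with the 7 cyclin genes placed on the line by class. The dashed line marks 500 bp; cye-1, cyb-3 and cyb-1 lie just beyond it and cyb-2.2 is the farthest.

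Against all protein-coding genes, whose median distance to a combined peak was 5538 bp, 5 of the 7 cyclin genes lay nearer than the median and cyb-2.1 and cyb-2.2 lay farther. The share of protein-coding genes with a nearer peak was 20.1% for cye-1, 21.2% for cyb-3 and 22.3% for cyb-1. It was 35.9% for cya-1, 39.8% for cyd-1, 52.1% for cyb-2.1 and 74.7% for cyb-2.2. The neighbourhoods differed too. Within 50 kb, cye-1 had 10 combined peaks, cyb-2.1 had 8, cyd-1 and cya-1 had 7 each, cyb-1 had 6, and cyb-3 and cyb-2.2 had 2 each, where the median protein-coding gene had 5. The cyclin genes were therefore not all in stretches poor in peaks.

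Genes for the kinases that these cyclins activate were bound. Of 13 matched genes for CDKs, their subunits, inhibitors and regulators, 5 were bound (38.5%, against 19.7% of protein-coding genes). They included all 3 kinases searched for. The cdk-1 gene, which encodes the mitotic kinase that pairs with B-type cyclins, had combined peak 197 (175 in replicate 1 and 220 in replicate 2) centred 188.5 bp from an end. The gene of the cyclin E partner, cdk-2, had combined peak 1017 (911 and 1172) at 449 bp, and that of the cyclin D partner, cdk-4, had combined peak 4080 (6208 and 3395) at 273.5 bp. The CDK inhibitor gene cki-2 (peak 3303) and wee-1.3 (peak 131), whose product is an inhibitory kinase of CDK-1, were the other two. Unbound were cki-1, cks-1, wee-1.1, wee-1.2 and the 4 cdc-25 genes, whose products are phosphatases that activate CDKs. For cdk-1 and its B-type cyclins, a bound kinase gene thus stood beside 4 cyclin genes with no combined peak within 500 bp. That difference depends on the window, as cyb-3 and cyb-1 had combined peaks at 632.5 bp and 738 bp. With 4 genes and a background of 19.7%, a count of 0 does not set the B-type cyclins apart.

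Of 13 matched genes for the ubiquitin ligases that degrade cyclins, 8 were bound (61.5%, against 19.7% of protein-coding genes). In the SCF ligase these were cul-1 (peak 3848), skr-1 (peak 3829) and sel-10 (peak 1297), whose mammalian counterpart targets cyclin E, and in the anaphase-promoting complex they were fzy-1 (peak 1908), mat-1 (peak 1929), emb-27 (peak 1529), emb-30 (peak 4798) and apc-2 (peak 3677). Of these, cul-1 had a replicate 1 peak (2916) but no replicate 2 peak centred within 500 bp of either end. The unbound genes were lin-23, fzr-1, mat-3, apc-10 and apc-11, the last with a combined peak 521.5 bp from an end. Of the E2F and retinoblastoma pathway genes, 6 of 9 were bound (66.7%, against the same 19.7%), namely lin-54 (peak 95), lin-53 (peak 100), efl-1 (peak 164), lin-9 (peak 195), lin-35 (peak 399) and dpl-1 (peak 1875). The unbound genes were efl-2, lin-37 and lin-52. The peak near cye-1 thus had a lower number than that of any bound gene in these lists, although it lay outside the window. Peaks beyond the window of the unbound list genes were not ranked.

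Of 8 other cyclin genes matched by name, 4 were bound (50%, against 19.7% of protein-coding genes). They were cic-1 (cyclin C, peak 869), cyl-1 (cyclin L, peak 1177), ccnk-1 (cyclin K, peak 1863) and cit-1.1 (cyclin T, peak 2090), whose products act in transcription or RNA processing. The unbound genes were cyh-1 (cyclin H), cyy-1 (cyclin Y), cit-1.2, a second cyclin T gene with a combined peak 869 bp away, and cya-2, named as an A-type cyclin. These lists hold few genes, were chosen with earlier results of the data known and have no test, so they are not shown to differ from the 7 cyclin genes or from the background.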

How the data were processed

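Peak positions and a peak score were read from the lists that the authors deposited. Per the file headers, positions are in WormBase WS220 and the source field names SPP, which calls peaks, and IDR (irreproducible discovery rate), which keeps peaks that rank alike in replicates. No aligner, version, threshold or use of the inputs is given in the sources used here. The deposited score has no stated unit and is one value throughout the combined list, so the number in each peak's name was used as rank. Replicate numbers follow the titles of the samples: the list called replicate 1 here is named 2 in the deposit, and that called replicate 2 is named 3. The labels do not say whether they came from separate cultures. The input samples were not analysed here.

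Distances ran from peak centres to both ends of each gene of the RefSeq table (assembly WBcel235, no strand), computed in Python 3.11.15 with numpy 2.4.6 and pandas 2.3.3. Intervals (scipy 1.17.1) are exact binomial ones, which cover counting error over genes and treat genes as independent. Neighbouring genes can share a peak, so the intervals may be too narrow. The code was tested on simulated data: all of 200 peaks placed inside the 500 bp window were found. This checks the distance code, not the shift between builds or which end is the start. The shift between builds was estimated as the mean of the median signed distance at low gene ends and that at high gene ends, over protein-coding gene ends with a combined peak within 500 bp. It was planned by strand and done by end, since no strand was given. No coordinates were converted. Figures were drawn with matplotlib 3.10.9.

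The members, gene lists and choices were made with earlier results of these data known. Named were the 7 cyclin genes, the bound genes of the 4 fixed lists, and genes with an end within 500 bp of a combined peak in or near a cyclin gene. Unbound list genes and the genes at more distant peaks were named after their values were seen. A planned search for genes ranked like the strongest bound cyclin gene gave nothing, as none was bound. In the lists, ccny-1, wee-1.4 and mat-2 found no match. Promoter motifs and sequence identity were not analysed here. Alternatives were other windows, moved gene ends, peak edges, nearest gene only, stronger peaks and single replicates.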

Additional observations from a re-analysis of the deposited data

How the results depend on the processing

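The count of 0 bound cyclin genes held at windows of 200 and 300 bp, with gene ends moved by +100 bp, with each peak given to its nearest gene only, in the stronger 50% and the 1000 strongest combined peaks, and at the low or high ends alone, a choice made after the data were seen. A window of 1000 bp gave 3 (1 G1/S, 2 mitotic). Gene ends moved by -100 bp gave 1, cye-1 (1 G1/S, 0 mitotic), although the shift estimated for chromosome I was -10.5 bp. Any base of a peak within 500 bp gave 2, cye-1 and cyb-3 (1 G1/S, 1 mitotic). The whole replicate 1 list gave 2 (1 G1/S, 1 mitotic), against 44.3% of protein-coding genes. The whole replicate 2 list gave 4 (1 G1/S, 3 mitotic), against 44.9%. Both lists hold more peaks than the combined list.

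The share of all genes bound, 12.1%, was 7.13%, 9.4% and 15.9% at 200, 300 and 1000 bp, and 13.3% by any base. It was 7.38% by nearest gene, 6.89% in the stronger 50% and 3.08% in the 1000 strongest. It was 31.7% in replicate 1, 32.3% in replicate 2, 8.02% at low ends, 8.2% at high ends and 19.7% over protein-coding genes. Moving gene ends by 100 bp gave 11.9 to 12%. Without one replicate, the strongest peaks of the other gave 0 cyclin genes both times, and 11.9 to 12% of all genes. The combined list itself was not remade.

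No paired analysis was possible because no result compares the ChIP samples with the inputs, which carry the same numbers. Read depth is unknown, so a site that a list lacks cannot be told apart from one missed there.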
